A study of Mus musculus with 6 samples.

Results

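The transporter rows described here are those whose mouse symbol begins with Slc2a, Slc5a, Slc16a, Slc22a, Slc37a or Slc45a followed by a number. They carry sugars, monocarboxylates and organic ions across membranes. Of 54418 rows of the count table, 74 met this pattern: 13 of the Slc2 family, 13 of Slc5, 14 of Slc16, 26 of Slc22, 4 of Slc37 and 4 of Slc45. Among the 74 were 2 rows annotated as pseudogenes: Slc22a13b-ps, a copy of a transporter gene, and Slc2a4rg-ps, which is named after a regulator of Slc2a4 and is no transporter. RNA came from mouse organoids, which are self-organising epithelial cultures, of a line that the labels call AKP. One group of 3 libraries has the genotype GATA6KO and the other group of 3 has the genotype Control, with no treatment, time or age given for either. GATA6 is a zinc-finger transcription factor of endoderm-derived epithelia, and the series title places its loss in colorectal cancer metastasis. The labels do not say how the gene was disrupted, whether a group is 1 clone or whether the libraries are separate cultures. The p-values therefore weigh differences against library-to-library spread alone, which may be technical.

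Solute carriers of these families set which fuels and small organic molecules an epithelial cell takes up or releases. The Slc2 genes encode facilitative hexose carriers (GLUT), which let sugar run down its gradient, whereas most Slc5 genes encode sodium-coupled carriers that pull sugars, vitamins, inositol or iodide uphill. Slc16 genes encode monocarboxylate carriers, among them the lactate and pyruvate carriers that work with the chaperone basigin, and also carriers of aromatic amino acids. Slc22 genes encode carriers of organic cations, anions and carnitine. The Slc37 family includes sugar-phosphate carriers of the endoplasmic reticulum, and Slc45 genes encode a small family related to plant sucrose carriers.

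The libraries held 22973245 to 31328415 estimated counts. Gata6 itself measured 14.3, 16.03 and 8.24 CPM in GATA6KO libraries, against 25.3, 23.2 and 28.0 CPM in Control libraries. CPM are counts per 1000000 after TMM scaling, a correction for differences in library composition. It was lower in GATA6KO by edgeR's test (log2 fold change -0.99, SE 0.25, adjusted p = 0.0486), with an adjusted p of 0.149, 0.128 and 0.181 when Control replicate 1, 2 or 3 was left out. The GATA6KO libraries lay further apart from each other than the Control libraries, with a median SD per gene of 0.251 against 0.089 on a log2(CPM + 0.5) scale. In GATA6KO replicate 2 the median log2 ratio of chromosome 14 genes to the Control mean was -0.90, and the single transporter row on that chromosome, Slc22a17, was too low to test. All 9 gut epithelium markers on a fixed list were expressed, and 4 of them (Cdh1, Krt8, Krt18 and Lgr5) were lower in GATA6KO by edgeR, which called 5.47% of all genes lower. Lgr5 held its call without each library in turn, whereas Cdh1 and Krt8 lost it without Control replicate 1, 2 or 3 and Krt18 without Control replicate 2 or 3. DESeq2 called 8 of the 9 lower, where it called 1529 of all 14714 genes lower. The 9 summed to 6576 to 7694 CPM in GATA6KO libraries and 9667 to 10476 CPM in Control libraries. Markers of fibroblasts summed to 0.393 to 0.700 CPM in GATA6KO and 0.467 to 0.659 CPM in Control, with Lum at 0 in all 6 libraries, and those of endothelium to 0.268 to 0.667 CPM in GATA6KO and 0.277 to 0.5002 CPM in Control, with Emcn at 0. Immune markers summed to 3.20 to 5.82 CPM in GATA6KO and 11.4 to 14.5 CPM in Control, most of it Cd68, a macrophage marker. Cd68 measured 5.15, 2.53 and 2.60 CPM in GATA6KO and 10.7, 10.7 and 14.2 CPM in Control and was called lower (log2 fold change -1.79, edgeR adjusted p = 0.019), though not without Control replicate 1, 2 or 3. Hepatocyte markers summed to 0.535 to 2.59 CPM in GATA6KO and 0.634 to 0.797 CPM in Control, with Fgb at 0. The part of these marker differences in the transporter results was not tested, and in bulk RNA fewer cells of a type cannot be told apart from less RNA per cell.

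GATA6KO and Control libraries differed in both directions among the transporters. By edgeR's quasi-likelihood test, adjusted over all genes at a threshold of 0.05, 4 of 30 tested rows rose in GATA6KO: Slc5a6, Slc5a9, Slc16a10 and Slc37a3. Likewise 4 fell: Slc2a3, Slc5a3, Slc22a21 and Slc45a3. The test called 12.4% of all 14714 genes tested, 6.92% higher and 5.47% lower, against 26.7% of the tested transporter rows, 13.3% in each direction. The filter on low counts kept 30 of the 74 rows, so these shares do not describe the other 44. Among the 30, Slc2a3 met the filter only through Control and Slc2a4 only through GATA6KO, the group where each was high. The median log2 fold change was -0.09 over the 30 rows and 0.02 over all genes tested. At an unadjusted p under 0.05 there were 15 rows. The share of all genes at that unadjusted threshold was not taken, here or below, so such counts have no background.

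The calls needed all 3 Control libraries, and the number of calls over all genes moved with the libraries as well. Without Control replicate 1, 2 or 3 edgeR called 0 transporter rows, and over all genes 425, 389 and 332, against 1823 with all libraries. In these fits 15, 14 and 14 transporter rows had an unadjusted p under 0.05, again with no share over all genes to set beside them. Without GATA6KO replicate 1 there were 13 calls, which included all 8, and 4360 genes called of 15136 tested. Without GATA6KO replicate 2 there were 11, which included 7 of the 8, and 2344 genes called of 15128 tested. Without GATA6KO replicate 3 there were 5, which included 4 of the 8, with 1086 genes called higher and 748 lower of 15168. DESeq2 on all libraries called 13 rows, which included all 8, and 3238 of 14714 genes.

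**Figure D1:**
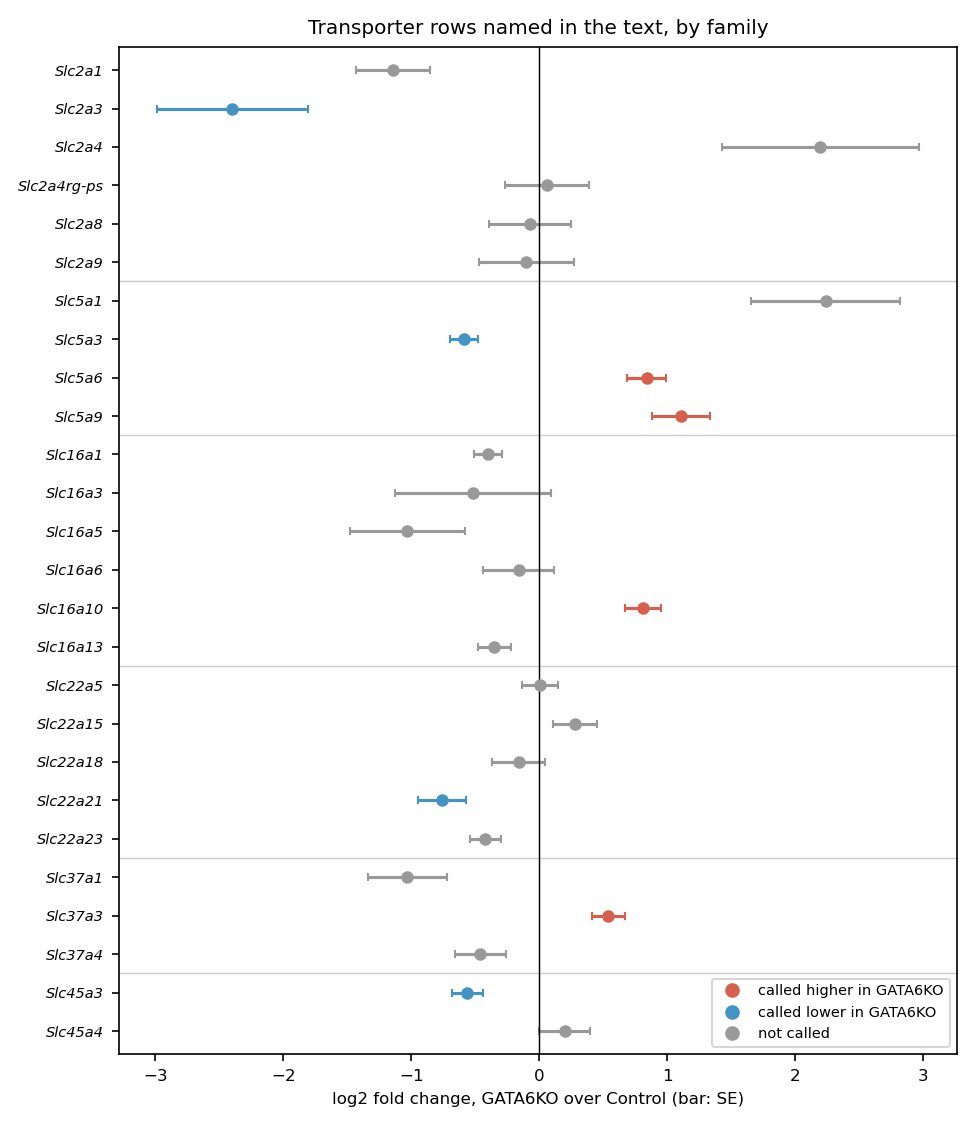
Log2 fold change of GATA6KO over Control (horizontal axis, bar: SE) for 26 of the 30 tested transporter rows (those called, at 5 CPM or more in a group, or nearest to a call), ordered by family and separated by grey lines, with coloured points for called rows. Slc5a6, Slc5a9, Slc16a10 and Slc37a3 lie right of 0 and Slc2a3, Slc5a3, Slc22a21 and Slc45a3 left of it, while the widest bars belong to rows with few counts or unequal GATA6KO libraries.

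Promoter sequence is shown for 5 rows on which the description turns: the abundant sugar and lactate carriers Slc2a1 and Slc16a1, the intestinal glucose carrier Slc5a1, and Slc37a3 and Slc45a3, which were called and hold a match. Each line gives the 250 bases before a RefSeq start site (build GRCm38.p6, the assembly of mm10), 5′ to 3′ on the gene's strand. Capitals mark a GATA hexamer (AGATAA or AGATAG, likewise TGATAA or TGATAG, on either strand) or the E-box CACGTG, a site type bound by Myc and Mlx, and neither motif contains the other.
Slc2a1, chr4:119108495-119108744, plus strand: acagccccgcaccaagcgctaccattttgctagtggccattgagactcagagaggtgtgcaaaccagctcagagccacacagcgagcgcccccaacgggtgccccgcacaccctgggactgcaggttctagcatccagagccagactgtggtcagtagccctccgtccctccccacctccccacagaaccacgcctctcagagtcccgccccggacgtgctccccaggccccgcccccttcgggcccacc
Slc16a1, chr3:104638414-104638663, plus strand: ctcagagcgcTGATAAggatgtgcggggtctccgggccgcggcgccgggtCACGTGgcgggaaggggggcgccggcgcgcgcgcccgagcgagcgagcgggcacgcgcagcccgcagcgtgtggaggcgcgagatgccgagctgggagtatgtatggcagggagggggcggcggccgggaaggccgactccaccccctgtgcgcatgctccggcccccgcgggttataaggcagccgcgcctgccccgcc
Slc5a1, chr5:33103969-33104218, plus strand: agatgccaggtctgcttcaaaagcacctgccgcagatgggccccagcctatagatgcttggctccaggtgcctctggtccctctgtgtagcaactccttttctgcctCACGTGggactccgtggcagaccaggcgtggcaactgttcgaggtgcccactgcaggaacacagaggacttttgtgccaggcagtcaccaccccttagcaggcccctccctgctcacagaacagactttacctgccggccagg
Slc37a3, chr6:39377708-39377957, minus strand: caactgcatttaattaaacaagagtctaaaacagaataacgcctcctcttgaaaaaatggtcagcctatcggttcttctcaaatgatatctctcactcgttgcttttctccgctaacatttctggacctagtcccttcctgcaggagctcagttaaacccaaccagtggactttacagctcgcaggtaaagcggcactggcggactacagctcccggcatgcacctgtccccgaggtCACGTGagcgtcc
Slc45a3, chr1:131970359-131970608, plus strand: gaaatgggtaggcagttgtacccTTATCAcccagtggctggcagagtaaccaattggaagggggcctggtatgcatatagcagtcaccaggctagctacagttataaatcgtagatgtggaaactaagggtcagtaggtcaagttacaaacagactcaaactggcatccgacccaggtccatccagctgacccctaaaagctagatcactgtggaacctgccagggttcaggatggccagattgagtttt
Slc2a1 held neither motif, Slc16a1 held TGATAA and CACGTG, Slc5a1 and this start of Slc37a3 held CACGTG, and the second start of Slc45a3 held TTATCA, the reverse complement of TGATAA. RefSeq windows of 300 bases, which add 50 bases after the start, were at hand for 20 of the 30 tested rows, 25 windows in all. A GATA hexamer occurred in 3 of these 25 windows and in 29.8% of all 32851 windows, and CACGTG in 4 of 25 and in 7.15%. A match is a run of letters and not a shown binding site.

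Among the hexose facilitators the major glucose carrier stood lower and a minor one fell. Slc2a1 (GLUT1; ENSMUSG00000028645, chromosome 4, 119108711 to 119137983, mm10) is the basal glucose carrier of most dividing cells. It measured 319, 164 and 145 CPM in GATA6KO replicates 1 to 3, against 455, 439 and 494 CPM in Control replicates 1 to 3. Every GATA6KO library lay under every Control library, with replicate 1 about midway between the other GATA6KO libraries and Control. The log2 fold change was -1.14 (SE 0.29), and the adjusted p of 0.0512 just missed the threshold. Slc2a1 passed without GATA6KO replicate 1 (log2 fold change -1.58, edgeR adjusted p = 0.00174), by DESeq2 on all libraries (adjusted p = 0.00103) and by limma-voom (adjusted p = 0.0385). It did not pass with no filter on low counts (edgeR adjusted p = 0.151), without GATA6KO replicate 2 or 3 (0.0921 and 0.0953) or without Control replicate 1, 2 or 3 (0.144, 0.132 and 0.167).

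Slc2a3 (GLUT3; ENSMUSG00000003153, chromosome 6, 122727809 to 122801640), a high-affinity glucose carrier best known from neurons, fell from a low level of expression. It had 3, 16 and 9 counts in GATA6KO libraries, against 55, 32 and 43 counts in Control libraries. These are 0.308 ± 0.212 CPM in GATA6KO and 1.65 ± 0.677 CPM in Control (SD, n = 3 each), a log2 fold change of -2.40 (SE 0.59, edgeR adjusted p = 0.0456). The groups did not overlap, although the highest GATA6KO and the lowest Control library differed by only 16 counts. Slc2a3 met the filter on low counts only through the Control libraries, the group where it was high. The edgeR call was lost when Control replicate 1, 2 or 3 was left out (adjusted p = 0.163, 0.111 and 0.15) and when GATA6KO replicate 3 was (adjusted p = 0.1).

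Slc2a4 (GLUT4), the insulin-responsive carrier of muscle and fat, had 18, 76 and 28 counts in GATA6KO and 11, 2 and 10 counts in Control. Its groups did not overlap but its log2 fold change of 2.20 had an SE of 0.77 and an adjusted p of 0.109. Slc2a4 met the filter on low counts only through the GATA6KO libraries, the group where it was high. The intracellular carrier Slc2a8 measured 13.4, 5.51 and 7.87 CPM in GATA6KO and 9.64, 9.29 and 9.17 CPM in Control. The urate carrier Slc2a9 measured 8.13, 2.85 and 4.84 CPM in GATA6KO and 5.56, 5.79 and 5.64 CPM in Control. In both, GATA6KO replicate 1 lay above all Control libraries and replicates 2 and 3 below them, and neither was called (adjusted p = 0.904 and 0.874). Their log2 fold changes were -0.07 and -0.10, and 0.18 and 0.19 without GATA6KO replicate 2. The lysosomal carrier Slc2a6 (adjusted p = 0.542) and the pseudogene Slc2a4rg-ps (adjusted p = 0.922) were also not called. Slc2a2 (GLUT2) and the fructose carrier Slc2a5 (GLUT5), carriers of mature absorptive cells of the small intestine, had at most 2 counts in any library.

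**Figure D2:**
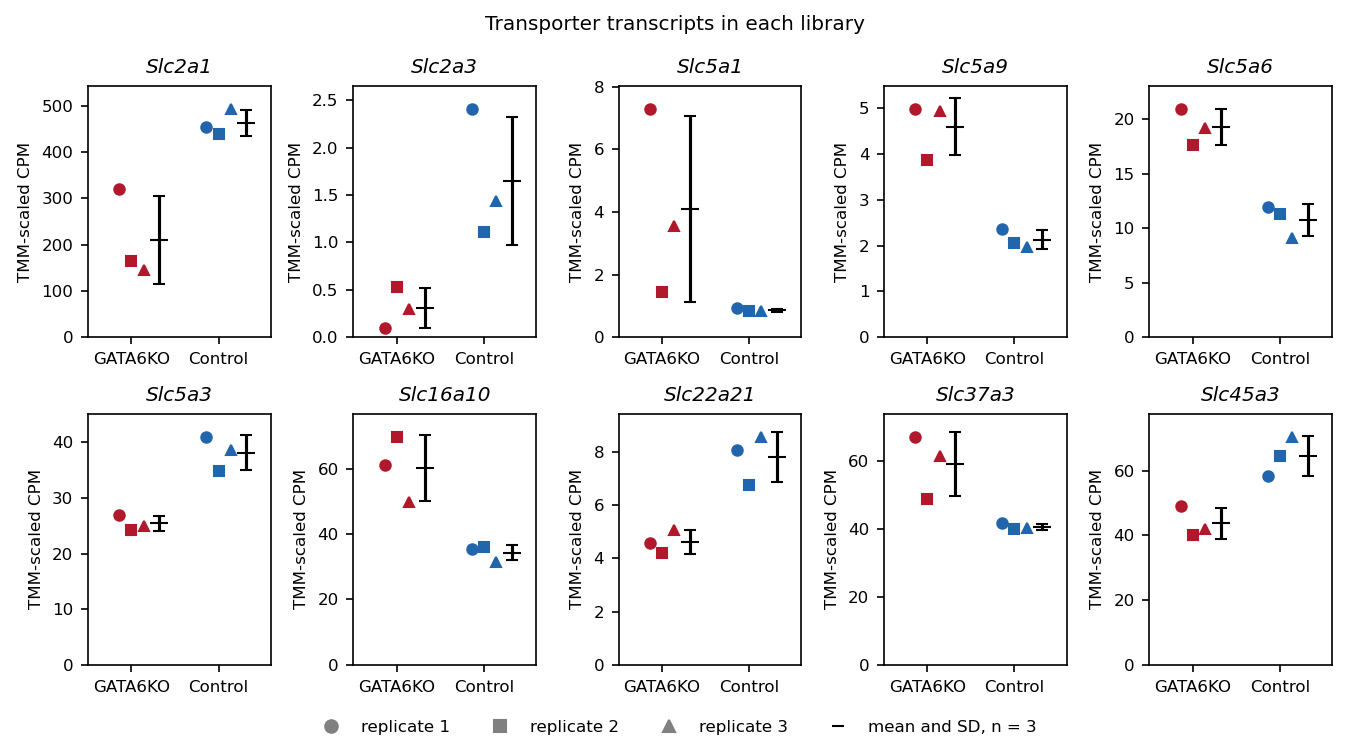
TMM-scaled CPM in each library for the 8 called rows and for Slc2a1 and Slc5a1, which just missed the threshold (vertical axes from 0; marker shapes give the replicate; black: mean and SD, n = 3). GATA6KO and Control do not overlap in any of the 10 panels, and the SD of Slc2a1 and Slc5a1 in GATA6KO is wide, with replicate 1 at 319 and 7.29 CPM.

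Of 5 tested rows of the sodium-coupled family, 2 rose and 1 fell. Slc5a6 (SMVT; ENSMUSG00000006641, chromosome 5, 31036036 to 31048924), the carrier of biotin and pantothenate, rose. It measured 21.0, 17.7 and 19.2 CPM in GATA6KO, against 11.9, 11.3 and 9.10 CPM in Control (log2 fold change 0.84, SE 0.15, edgeR adjusted p = 0.0184). The GATA6KO libraries were close together and clear of Control. Its adjusted p was 0.0659, 0.088 and 0.0961 without Control replicates 1, 2 and 3. Of the 31-base words in its transcripts, 31.1% also occur in some other gene, and 22.8% in the processed pseudogene Gm6157, which had 0 counts in every library. Slc5a6 also overlaps Atraid, an expressed gene on the opposite strand, which was not called (log2 fold change 0.00, edgeR adjusted p = 0.998).

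Slc5a9 (SGLT4; ENSMUSG00000028544, chromosome 4, 111875375 to 111902918), a carrier of mannose and fructose, rose as well. It measured 4.98, 3.87 and 4.94 CPM in GATA6KO, against 2.37, 2.05 and 1.97 CPM in Control (log2 fold change 1.11, SE 0.23, edgeR adjusted p = 0.0272). That is 2.16 times the Control level, with no overlap. The adjusted p was 0.102, 0.139 and 0.147 without Control replicates 1, 2 and 3.

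Slc5a1 (SGLT1; ENSMUSG00000011034, chromosome 5, 33104219 to 33162870), the sodium-glucose carrier of the intestinal brush border, had the largest positive log2 fold change of the 30 rows. It had 218, 44 and 106 counts in GATA6KO libraries, against 21, 24 and 25 counts in Control libraries. In CPM these are 7.29, 1.44 and 3.54 in GATA6KO and 0.920, 0.832 and 0.834 in Control. All 3 GATA6KO libraries lay above Control but differed from one another by up to about 5 times, and the log2 fold change of 2.24 (SE 0.58) had an adjusted p of 0.0517. It passed without GATA6KO replicate 1 (log2 fold change 1.53, edgeR adjusted p = 0.0471), without replicate 2 (2.65, adjusted p = 0.00875) and by DESeq2 (adjusted p = 0.00246), but not by limma-voom (adjusted p = 0.107).

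Slc5a3 (SMIT1; ENSMUSG00000089774, chromosome 16, 92058322 to 92087473), the myo-inositol carrier that responds to osmotic stress, fell. It measured 27.0, 24.3 and 25.0 CPM in GATA6KO, against 41.0, 34.8 and 38.6 CPM in Control (log2 fold change -0.59, SE 0.11, edgeR adjusted p = 0.0191). Both groups were tight. The adjusted p was 0.107, 0.0656 and 0.105 without Control replicates 1, 2 and 3. Slc5a3 overlaps Mrps6, a mitochondrial ribosome gene on the same strand, which was not called (log2 fold change 0.13, edgeR adjusted p = 0.539). Of the 31-base words of Slc5a3, 1.3% occur in any other gene. The iodide carrier Slc5a5 had 8 to 18 counts in GATA6KO and 11 or 12 in Control (adjusted p = 0.951). Slc5a8 (SMCT1), the sodium-coupled carrier of butyrate and other short-chain fatty acids in colon, was not tested, with 0, 8 and 4 counts in GATA6KO and 0, 1 and 0 in Control.

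The lactate carriers themselves were not called, while an aromatic amino acid carrier of the same family rose. Slc16a10 (TAT1; ENSMUSG00000019838, chromosome 10, 40033532 to 40142258), which lets tyrosine, tryptophan and phenylalanine cross the basolateral membrane, measured 61.2, 69.8 and 49.7 CPM in GATA6KO, against 35.5, 36.0 and 31.6 CPM in Control. The lowest GATA6KO library was well above the highest Control library, with a log2 fold change of 0.81 (SE 0.14, edgeR adjusted p = 0.0167). Its adjusted p was the smallest of the 30 rows, and was 0.0758, 0.0815 and 0.104 without Control replicates 1, 2 and 3.

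Slc16a1 (MCT1), the proton-coupled carrier of lactate, pyruvate, ketone bodies and butyrate, measured 287, 324 and 249.0 CPM in GATA6KO and 374, 374 and 384 CPM in Control. The groups did not overlap, but edgeR did not call it (log2 fold change -0.40, SE 0.11, adjusted p = 0.066). It passed in 1 of 6 fits that left out a library, without GATA6KO replicate 2 (edgeR adjusted p = 0.0226). Of 7 other settings 1 called it, DESeq2 (adjusted p = 0.0125). Slc16a3 (MCT4), the lactate exporter of glycolytic cells, measured 107, 15.1 and 41.5 CPM in GATA6KO and 77.2, 88.3 and 68.9 CPM in Control. GATA6KO replicate 1 was thus above every Control library and replicate 2 was below all of them by more than 4 times (log2 fold change -0.52, SE 0.61, adjusted p = 0.598). Without GATA6KO replicate 1 the log2 fold change was -1.47 and without replicate 2 it was -0.08, with adjusted p of 0.0563 and 0.912. Basigin (Bsg), the chaperone that brings both carriers to the membrane, varied in the same libraries, at 1744, 473 and 801 CPM in GATA6KO and 1658, 1668 and 2185 CPM in Control (log2 fold change -0.87, edgeR adjusted p = 0.23). Embigin (Emb), the other chaperone, had too few counts to test.

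Slc16a6 (MCT7), known in zebrafish as a ketone body carrier of liver, measured 68.7, 129 and 58.8 CPM in GATA6KO and 93.8, 94.2 and 99.5 CPM in Control. Here replicate 2 was the high GATA6KO library and the others lay below Control. The log2 fold change of -0.16 (adjusted p = 0.726) became -0.59 without GATA6KO replicate 2, where it passed (edgeR adjusted p = 0.0168), and 0.04 without GATA6KO replicate 3. Of its 31-base words, 20.9% are shared with Amz2 on the opposite strand. Slc16a13 measured 18.6, 14.98 and 16.04 CPM in GATA6KO and 21.2, 20.4 and 21.6 CPM in Control, without overlap (log2 fold change -0.35, SE 0.13, adjusted p = 0.113). Of 6 fits that left out a library 1 called it, without GATA6KO replicate 1 (edgeR adjusted p = 0.0258), and of 7 other settings 0 did. The low Slc16a5 had 56, 22 and 79 counts in GATA6KO and 88, 99 and 101 counts in Control (log2 fold change -1.03, SE 0.45, adjusted p = 0.174). Its antisense transcript Gm11695 had 6, 2 and 11 counts in GATA6KO and 25, 15 and 24 in Control. Gm11695 was not called (log2 fold change -1.90, edgeR adjusted p = 0.0825) and met the filter on low counts only through Control, the group where it was high. Slc16a4 was under the filter, with 12, 37 and 5 counts in GATA6KO and 2, 2 and 3 in Control.

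**Figure D3:**
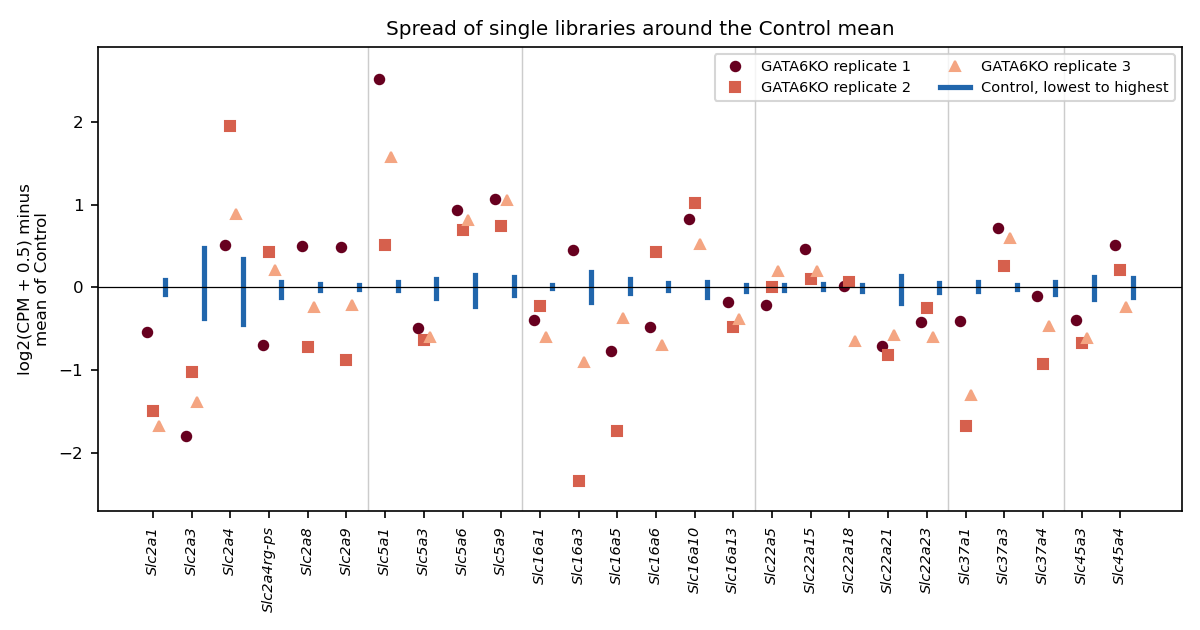
Each GATA6KO library as log2(CPM + 0.5) minus the Control mean (vertical axis) for the same 26 rows (horizontal axis), with the range of the 3 Control libraries as a blue bar beside it. Slc5a6, Slc5a9, Slc5a3 and Slc22a21 have 3 close GATA6KO points on one side of 0, whereas Slc2a8, Slc2a9, Slc16a3 and Slc16a6 have GATA6KO points on both sides.

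The organic ion family had many silent rows and 1 call. Slc22a21 (OCTN3; ENSMUSG00000063652, chromosome 11, 53949965 to 53980332), a carnitine carrier known from the mouse, fell. It measured 4.58, 4.197 and 5.07 CPM in GATA6KO, against 8.06, 6.76 and 8.57 CPM in Control (log2 fold change -0.76, SE 0.19, edgeR adjusted p = 0.0461). The call was lost without any one Control library (adjusted p = 0.18, 0.125 and 0.207 for replicates 1, 2 and 3), and also when GATA6KO replicate 2 or 3 was left out (0.0556 and 0.0513). Its neighbour and close paralog Slc22a5 (OCTN2), the main carnitine carrier, measured 15.4, 18.1 and 20.7 CPM in GATA6KO and 17.9, 17.5 and 18.3 CPM in Control (log2 fold change 0.01, adjusted p = 0.965). Of the 31-base words in Slc22a21 transcripts, 29.9% also occur in Slc22a5, so the split of reads between them is uncertain. Summed, the pair measured 20.0, 22.3 and 25.8 CPM in GATA6KO and 26.0, 24.3 and 26.9 CPM in Control, where the groups overlap.

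Other Slc22 rows were not called. Slc22a23, an orphan carrier, measured 30.9, 34.8 and 27.2 CPM in GATA6KO and 40.0, 43.0 and 41.6 CPM in Control (log2 fold change -0.42, SE 0.12, edgeR adjusted p = 0.0602). It had no overlap between groups. Of 6 fits that left out a library 1 called it, without GATA6KO replicate 2 (edgeR adjusted p = 0.0252), and of 7 other settings 1 did, DESeq2 (adjusted p = 0.0135). Slc22a15 measured 8.80 ± 1.25 CPM in GATA6KO and 7.23 ± 0.192 CPM in Control, and Slc22a18 12.3 ± 3.21 CPM and 13.7 ± 0.383 CPM (SD, n = 3 each, adjusted p = 0.294 and 0.653). Slc22a4 (OCTN1), the ergothioneine carrier, had an adjusted p of 0.951. The renal anion carriers Slc22a6 and Slc22a8 were at 0 in all 6 libraries. A count of 0 allows up to 3 counts, or 0.0958 to 0.131 CPM of the library total, for counting error only.

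The Slc37 rows differed among themselves. Slc37a3 (ENSMUSG00000029924, chromosome 6, 39334773 to 39377675), known in human cells as a lysosomal carrier that works with ATRAID, rose. It measured 67.1, 48.7 and 61.5 CPM in GATA6KO, against 41.7, 40.1 and 40.3 CPM in Control (log2 fold change 0.54, SE 0.13, edgeR adjusted p = 0.0439). The call was lost when Control replicate 1, 2 or 3 (adjusted p = 0.137, 0.168 and 0.172) or GATA6KO replicate 3 (0.0874) was left out. Slc37a1, a phosphate-linked glucose-6-phosphate antiporter, lay lower, at 68.2, 28.0 and 36.6 CPM in GATA6KO against 88.4, 87.9 and 94.8 CPM in Control. As with Slc2a1, replicate 1 was the GATA6KO library nearest to Control. Its log2 fold change was -1.03 (SE 0.31, adjusted p = 0.0742), and it was -1.49 and called without GATA6KO replicate 1 (edgeR adjusted p = 0.00315) and called by DESeq2 (adjusted p = 0.00722). Slc37a1 was thus called in 1 of 6 fits that left out a library and under 1 of 7 other settings. Slc37a4, which carries glucose-6-phosphate into the endoplasmic reticulum for its hydrolysis, measured 45.04, 25.3 and 34.8 CPM in GATA6KO and 45.9, 50.7 and 48.5 CPM in Control (log2 fold change -0.46, adjusted p = 0.17). Slc37a4 passed in 1 of 6 fits that left out a library, without GATA6KO replicate 1 (edgeR adjusted p = 0.025), and under 0 of 7 other settings. G6pc3, the ubiquitous phosphatase that works with it, had a log2 fold change of 0.09 (adjusted p = 0.594).

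In the Slc45 family 1 of 2 tested rows fell. Slc45a3 (prostein; ENSMUSG00000026435, chromosome 1, 131962967 to 131982969), known in human as a prostate-expressed gene, measured 49.0, 40.1 and 42.0 CPM in GATA6KO, against 58.4, 64.7 and 70.5 CPM in Control. The groups did not overlap, and edgeR gave a log2 fold change of -0.56 (SE 0.12, adjusted p = 0.0287). The call was lost when Control replicate 1, 2 or 3 (adjusted p = 0.0768, 0.114 and 0.128) or GATA6KO replicate 3 (0.0599) was left out. Of its 31-base words, 12.6% also occur in the overlapping transcript Gm29103, which had 49, 41 and 34 counts in GATA6KO and 39, 39 and 72 in Control. Slc45a4 measured 39.4, 32 and 23.3 CPM in GATA6KO and 29.9, 27.5 and 25.3 CPM in Control, with overlap (adjusted p = 0.533).

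Summed over families, the differences in the hexose and monocarboxylate carriers were those of Slc2a1 and Slc16a1, neither of which was called. The 13 Slc2 rows summed to 349, 185 and 169 CPM in GATA6KO, against 481, 463 and 517 CPM in Control. The 14 Slc16 rows summed to 545, 555 and 418 CPM in GATA6KO and 606, 617 and 609 CPM in Control. In both families every GATA6KO library was below every Control library, as it was for the 26 Slc22 rows (72.8 to 83.7 CPM in GATA6KO, 90.4 to 92.3 CPM in Control). Without Slc2a1 the other 12 Slc2 rows summed to 29.9, 21.0 and 23.8 CPM in GATA6KO and 26.1, 24.5 and 23.7 CPM in Control. Without Slc16a1 the other 13 Slc16 rows summed to 258, 231 and 169 CPM in GATA6KO and 232, 243 and 225 CPM in Control, and in both cases the groups overlapped. For Slc5, Slc37 and Slc45 the full sums overlapped. Slc2a1 and Slc16a1 together made up 45.7% of the summed CPM of all 74 rows in GATA6KO and 55.5% in Control. All 74 rows took 0.0932% to 0.131% of the counts of a GATA6KO library and 0.145% to 0.149% of a Control library.

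**Figure D4:**
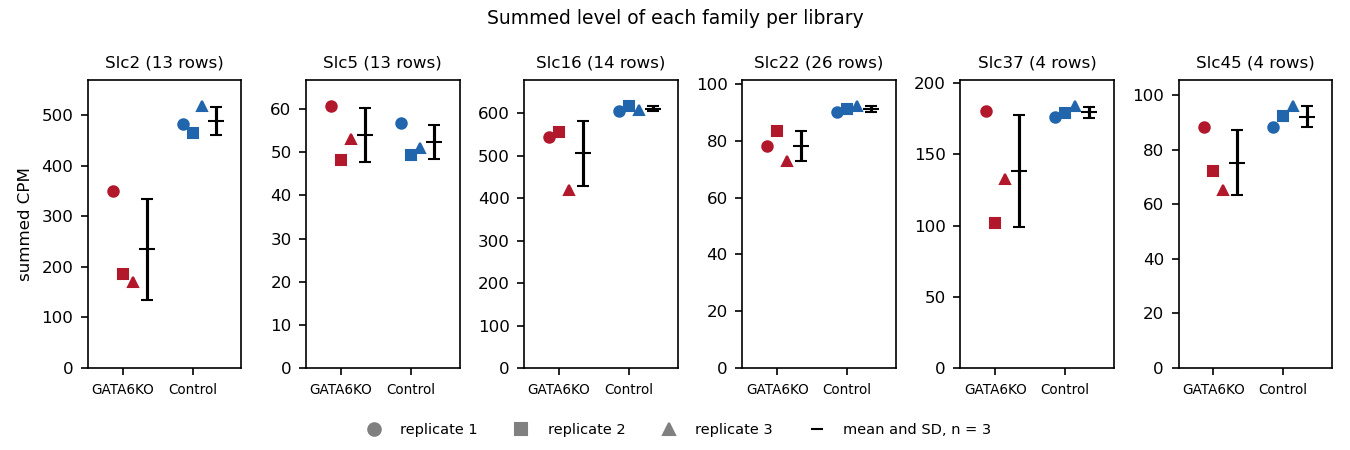
Summed CPM of all rows of each family per library (vertical axes from 0; marker shapes give the replicate; black: mean and SD, n = 3). For Slc2, Slc16 and Slc22 all 3 GATA6KO sums lie below the Control sums, and in Slc37 and Slc45 GATA6KO replicate 1 reaches the Control range.

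Levels of different rows were set side by side per kilobase of exon (TPM, scaled to 1000000 over all genes). Slc16a1 came first in GATA6KO, at 203 ± 32.8 TPM, and Slc2a1 second, at 186 ± 82.1 TPM (SD, n = 3). In Control this order was turned, with Slc2a1 at 388 ± 20.6 TPM and Slc16a1 at 251 ± 6.77 TPM. The pair lay within the spread of each other in GATA6KO but not in Control. Next in both groups came Slc16a6, at 55.2 ± 26.6 TPM in GATA6KO and 57.7 ± 1.36 TPM in Control, then Slc45a3 at 38.2 ± 3.47 and 53.2 ± 3.23 TPM and Slc37a4 at 38.1 ± 9.86 and 49.7 ± 1.65 TPM. Between neighbours in this order, the mean ± SD ranges of Slc16a6, Slc45a3 and Slc37a4 overlapped in both groups.

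The spread among GATA6KO libraries was wider for the transporters than for the median gene. The median SD of the 30 tested rows on the log2(CPM + 0.5) scale was 0.391 in GATA6KO and 0.0899 in Control, against 0.251 and 0.089 over all genes tested, and 26 of 30 rows (86.7%) had the larger SD in GATA6KO, near the 86.2% of all genes tested. GATA6KO replicate 1 was the highest of its group for 16 of 30 rows (53.3%), against 37.5% of all genes tested, and replicate 3 for 4 (13.3%), against 30.1%. These shares are descriptions, with no test. Values of GATA6KO and Control did not overlap for 18 of 30 rows (60.0%), 7 higher and 11 lower in GATA6KO, against 40.8% of all genes tested, 20.3% higher and 20.5% lower. The 18 include Slc2a3 and Slc2a4, which met the filter on low counts only through the group where they were high.

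Of the 44 rows that were not tested, 18 were at 0 in all 6 libraries and 26 had some counts. Only 4 of the 44 exceeded 10 counts in any library: Slc16a4, with up to 37, Slc2a10, Slc22a17 and Slc22a13b-ps. Slc2a10 had 7, 1 and 31 counts in GATA6KO and 2, 1 and 2 in Control, and Slc22a17 had 2, 1 and 16 in GATA6KO and 1, 2 and 1 in Control. In both the counts came mainly from GATA6KO replicate 3. Slc22a7, a hepatic and renal anion carrier, had 7, 2 and 5 counts in GATA6KO and 1, 0 and 0 in Control. Rows at 0 included the sodium-coupled carriers Slc5a7, Slc5a11 and Slc5a12, the monocarboxylate carriers Slc16a8 and Slc16a14, and the hexose carriers Slc2a7 and Slc2a13.

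Genes that work with the carriers were taken from 8 lists with 69 genes, of which 55 were tested. Of these, 1 rose and 4 fell, a called share of 9.09% that is no higher than the 12.4% of all genes. Abcb1a, the multidrug efflux pump, fell to 26.9, 31.9 and 27.8 CPM in GATA6KO, against 114, 125 and 96.7 CPM in Control (log2 fold change -1.95, SE 0.13, edgeR adjusted p = 0.0012). The highest GATA6KO library lay far below the lowest Control library, and the call held without each library in turn (adjusted p at most 0.0147). It was the 1 called gene of 8 tested in the list of efflux and uptake partners of organic ions. Sord, which oxidises sorbitol to fructose, fell to 7.82, 6.82 and 6.40 CPM in GATA6KO, against 16.8, 17.1 and 15.5 CPM in Control (log2 fold change -1.23, SE 0.14, edgeR adjusted p = 0.00478). It was the 1 called of 11 tested in the list of first steps of sugar use, with an adjusted p of at most 0.0399 without each library in turn. The hexokinases Hk1 and Hk2, which trap glucose in the cell, were not called. Hk1 measured 360, 170 and 141 CPM in GATA6KO and 383, 376 and 440 CPM in Control (adjusted p = 0.149), with replicate 1 nearest to Control, as for Slc2a1.

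Among 12 tested enzymes of lactate, ketone bodies and pyruvate, Pdk4, a kinase that restrains pyruvate oxidation, rose. It measured 3.11, 5.08 and 2.44 CPM in GATA6KO, against 0.657, 0.555 and 0.167 CPM in Control (log2 fold change 2.95, SE 0.55, edgeR adjusted p = 0.02), and was not called without Control replicate 1, 2 or 3 (adjusted p = 0.0696, 0.0879 and 0.0672). Pdk4 met the filter on low counts only through the GATA6KO libraries. Ldha, the main lactate-forming enzyme, measured 3335, 1851 and 2270 CPM in GATA6KO and 2924, 3031 and 3255 CPM in Control (adjusted p = 0.367). Of 9 tested transcriptional regulators, Myc fell by 0.52 and Mlx by 0.39 on the log2 scale (SE 0.09 each, edgeR adjusted p = 0.0183 and 0.0384). Myc measured 142, 142 and 158 CPM in GATA6KO and 208, 199 and 227 CPM in Control, and neither was called without Control replicate 1, 2 or 3 (adjusted p of up to 0.176), nor Mlx without GATA6KO replicate 2 (adjusted p = 0.0551). Hif1a, which drives Slc2a1 under low oxygen, measured 276, 556 and 320 CPM in GATA6KO and 236, 232 and 231 CPM in Control, without overlap (log2 fold change 0.72, adjusted p = 0.11).

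The other 4 lists held no edgeR call: partners of the lactate and glucose carriers (6 tested), the glucose-6-phosphatase system (2 tested), carnitine use (5 tested) and PDZ scaffolds of the brush border (2 tested). The smallest adjusted p in them was 0.138, at an unadjusted p under 0.05 there was 1 gene, and DESeq2 called 0. In the carnitine list Cpt1a, which commits fatty acids to oxidation, had a log2 fold change of -0.02 (adjusted p = 0.928). The others were Cpt2 at -0.08, Crat at 0.21, Crot at 0.03 and Slc25a20 at 0.12, all log2 fold changes with adjusted p of at least 0.46. Slc9a3r1, the scaffold of brush border carriers, measured 153.5, 147 and 138 CPM in GATA6KO and 146, 148.5 and 149.5 CPM in Control (adjusted p = 0.898).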

How the data were processed

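The authors deposited 1 estimated count per gene and library, a whole number with no scaling, from poly(A)-selected RNA prepared with a directional kit, per the labels' protocols. Per the submitters' processing notes, Salmon 1.3.0 and mm10 were used, in roles the notes as held here leave out. Annotation, strand setting and rounding: not given in the sources used here. Identifiers were matched to GENCODE M21 (54166 of 54418; the other 252 took at most 0.00666% of the counts of a library).

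Genes were kept by filterByExpr (10 counts at the median library size in 3 libraries, 15 in total; 14714 genes), scaled by TMM and tested with edgeR 4.0.16 by its quasi-likelihood test (robust, group only, Benjamini-Hochberg over all genes). Every adjusted p with no other tool named is from that fit. The SE is the log2 fold change divided by the square root of F. R 4.3.3, limma 3.58.1 (voom) and DESeq2 1.42.0 served alternatives. The code was tested on simulated data.

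Shared 31-base words were counted over GENCODE transcripts. TPM used the union of exons, which overstates the length of genes with many isoforms. Members and lists were chosen with earlier results of these data known. Rows called, rows of at least 5 CPM in a group and the 3 nearest to a call were named with values. In the text, 1 tested row and 1 marker are not reported here. Other genes shown are outside that rule and were chosen after their values were seen.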

Additional observations from a re-analysis of the deposited data

How the results depend on the processing

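Values at 3 libraries a group and 22973245 to 31328415 counts limit what could be called, and rows under 10 counts could not be tested. The number of transporter rows called higher and lower was 4 and 4. It was 1 and 0 with the replicate number as a block, where 827 genes were called in all against 1823, and Slc16a10 was the row kept. DESeq2 called 8 rows lower and 3238 genes in all. Leaving out each library in turn gave 0 to 5 rows higher, 0 to 8 rows lower and 332 to 4360 genes in all. The counts stayed within 1.5 times under RLE scaling, the library total alone, no filter, a stricter filter on low counts and limma-voom. Among single genes, 377 values kept their direction and side of the threshold, 71 lost a call, 20 gained one and 12 changed sign. These 12 belonged to 6 rows, called neither with all libraries nor where the sign changed. As single libraries were left out, log2 fold changes ran from -0.189 to 0.345 for Slc2a4rg-ps, -0.0996 to 0.114 for Slc22a5, -0.485 to 0.184 for Slc2a8, -0.558 to 0.194 for Slc2a9, -0.286 to 0.0447 for Slc22a18 and -0.588 to 0.0447 for Slc16a6. Slc2a4rg-ps also had -0.0248 by limma-voom and -0.0193 with the replicate block. Scaling to the library total lost Slc22a21 and gained Slc5a1. Deviations of same-numbered libraries from their group means correlated at -0.0103, 0.0744 and -0.0921, and not every library correlated best with its own number. With 3 libraries a group and a wider spread in GATA6KO, these values cannot decide whether same-numbered libraries belong together. The cause of the differences between settings was not tested. Slc16a3 had log2 fold changes of -1.47 to -0.08 as single libraries were left out.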
